A study of Mus musculus with 24 samples.

Results

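Hematopoietic stem cells (HSCs) are the rare bone marrow cells from which all blood lineages are replenished. Most adult HSCs are quiescent: they stay outside the cell cycle for long periods and carry little mRNA for DNA replication and mitosis, while a minority is in cycle at any time. Transcription factors such as Hlf and Mecom and the protein C receptor Procr are known to mark or maintain them. The cells described here are the 330 single HSCs that carry the number 4 in the index-sort record of a mouse study, out of 1430 recorded cells in groups 1 to 10. Group 4 is the largest of the 10 groups. It was set against the 1090 cells of all other groups with the 10 cells of group 1 left out, and against a pool of 539 cells from groups 2, 3 and 5, the other groups of at least 50 cells with the lowest share of cycling transcripts.

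The HSCs came from the mouse reporter strain -60/DR5-TA-RA-CFP, in which a cyan fluorescent protein (CFP) transgene is read out by flow cytometry; DR5 is a class of retinoic acid response element. All cells shared one sort gate, lineage-negative Sca-1+ Kit+ (LSK), CD150+ and CD48-, and were sorted without selection on CFP. No treatment, age or sex is given for them in the labels. The single-cell libraries are labelled as 8 batches, while the record places each well on 1 of 4 sort plates, numbered 2 to 5, and gives no map from wells to batches or animals. The plates are therefore used as replicates of 1 collection: SDs and permutation p-values measure the spread between plates, not between animals. P-values of the gene tests below rest largely on variation pooled over genes. A small one therefore does not measure the spread of that gene between plates. By a strict reading there is 1 sample. No well identifier occurred more than once in the record.

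Group 4 supplied 94 of 356 recorded cells on plate 2, 90 of 345 on plate 3, 82 of 361 on plate 4 and 64 of 368 on plate 5. Its share of a plate was thus 26.4%, 26.1%, 22.7% and 17.4%. The summed depth of group 4 was 113649, 138689, 109322 and 86858 unique molecular identifiers (UMIs, each standing for 1 captured mRNA molecule) on plates 2 to 5. The median cell had 1240 ± 134 UMIs in group 4 and 1282 ± 95.3 UMIs in the other cells (SD over 4 plates). It had 1240 ± 134 UMIs in group 4 against 1112 ± 106 UMIs in the pool of groups 2, 3 and 5, higher in 4 of 4 plates.

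Plate 2 stood apart in several transcripts, in group 4 and in the other cells alike. The interferon-induced membrane protein gene Ifitm1 had 299 CPM in group 4 on plate 2 (counts scaled to a total of 1000000 UMIs), but 2401, 3284 and 2867 CPM on plates 3 to 5. In the other cells Ifitm1 had 202 CPM on plate 2 and 2402, 2358 and 2277 CPM on plates 3 to 5. Ifitm3 was at 114 CPM in group 4 on plate 2, against 1399, 1564 and 1485 CPM on the rest. Comparisons below were therefore made within plates.

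The gate could be checked only in part from the transcripts. Group 4 held 200 UMIs of Kit, 37 of Ly6a (the gene of Sca-1) and 6 of Slamf1 (the gene of CD150). Cd48 had 0 UMIs, which allows a level of up to 6.69 CPM from counting error alone, while the other cells had 1 UMI. Cd48 and Slamf1 mRNA were too scarce at this depth to check the gate. Neutrophil and monocyte markers, and those of mast cells and basophils, were nearly absent in group 4, with 8 UMIs and 1 UMI in all. There 8 of 12 and 8 of 9 of these genes had no UMI, against 5 of 12 and 6 of 9 in the other cells. These counts are not at equal depth, with 86858 to 138689 UMIs per plate in group 4 and 366576 to 469914 in the other cells. As a share of UMIs, the neutrophil and monocyte list took 0.00185 ± 0.00122% in group 4 and 0.00116 ± 0.000427% in the other cells, higher on 3 of 4 plates. The mast cell and basophil list took 0.000180% and 0.000314%, higher on 1 of 4 plates. Entries without a UMI were common: of 27297 gene entries, 13132 had a UMI in group 4 or the other cells. B, T and natural killer cell markers summed to 0.109 ± 0.0147% of UMIs in group 4. Of these, 11 of 20 genes, Cd79a and Cd3e among them, had no UMI in group 4, and 10 of 20 had none in the other cells. This list includes MHC class II genes, which some HSCs also express. Macrophage and dendritic genes summed to 0.123 ± 0.00638% in group 4 and 0.121 ± 0.00739% in the other cells, and endothelial and stromal genes to 0.0295 ± 0.00284% and 0.0250 ± 0.00239%. The part that such RNA has in the values below was not tested.

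The low-cycling label was checked with 2 lists of S phase and G2/M genes, after thinning every cell to 500 UMIs so that depth was equal. These genes took 0.794, 0.796, 0.817 and 0.750% of UMIs in group 4 on plates 2 to 5, against 1.33, 1.36, 1.41 and 1.37% in the other cells. Group 4 was lower on every plate, with a mean difference of -0.579 ± 0.0340 percentage points (0.789 ± 0.0281% in group 4 and 1.37 ± 0.0335% in the other cells). Without thinning the mean share was 0.793 ± 0.0454% in group 4 and 1.37 ± 0.0478% in the other cells. Among groups of at least 50 cells, group 4 had the second lowest mean share after group 2 (0.754 ± 0.123%), followed by group 3 (0.826 ± 0.0735%), group 5 (0.879 ± 0.0681%) and group 7 (0.920 ± 0.136%). The range of group 4 over the plates overlapped with that of each of these 4 groups. Groups 8 and 9 stood clearly higher at 1.69 ± 0.331% and 2.57 ± 0.313%. The record does not say how the group numbers were assigned, and they may rest on these same UMIs. All differences in transcript levels between groups are therefore given as descriptions without p-values.

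**Figure D1:**
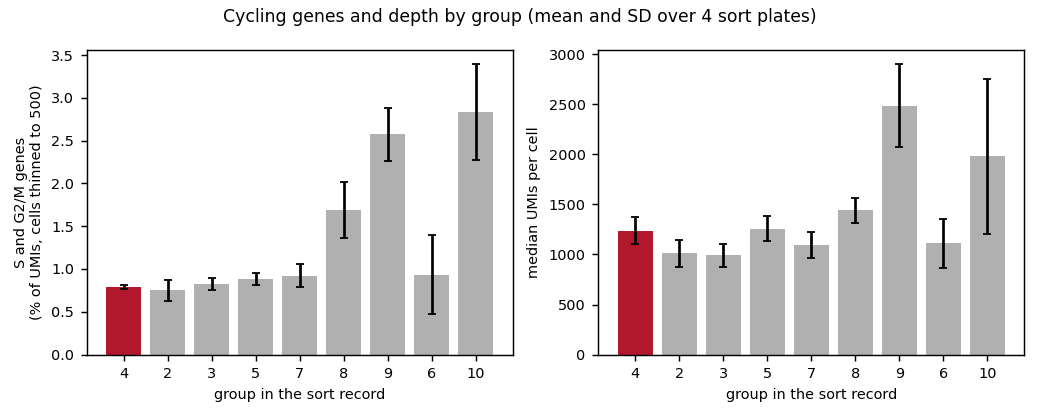
Share of UMIs from S phase and G2/M genes after thinning each cell to 500 UMIs (left, percent) and median UMIs per cell (right) for group 4 (red) and the other groups of the sort record (grey); bars are means and error bars SDs over 4 sort plates. Group 4 lies at 0.789%, near groups 2, 3, 5 and 7, while groups 8, 9 and 10 lie above 1.5%.

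Against the other cells, 26 of 35 tested S phase genes were counted as lower in group 4, and 5 of 23 tested HSC transcription factor genes as higher. Single genes such as Kdm5b, Pik3r1 and Mllt3 were also higher. A gene was counted when its log2 fold change, fitted with edgeR on UMIs summed per plate, was at least 0.5 in size and its CPM differed in the same direction on 4 of 4 plates. Of 4956 genes with enough UMIs for the fit, 321 were counted as higher (6.48%) and 358 as lower (7.22%), 13.7% in either direction; the median log2 fold change of all 4956 was 0.02. Since the grouping may have used these genes, the shares of the lists below are to be read beside these percentages and show nothing on their own.

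The widest positive difference among genes with a mean of at least 100 CPM was in Kdm5b, a demethylase of histone H3 lysine 4. It had 44.0, 209, 220 and 345 CPM in group 4 on plates 2 to 5, against 38.2, 69.3, 62.2 and 102 CPM in the other cells, a log2 fold change of 1.53 ± 0.25 (SE of the fit, as below). Group 4 was higher on each plate, but its value on plate 2 lay within the range of the other cells, and the difference was carried by plates 3 to 5. Pik3r1, the regulatory subunit of phosphoinositide 3-kinase, had 308, 159, 183 and 265 CPM in group 4, against 120, 104, 99.5 and 102 CPM in the other cells (1.05 ± 0.21). The ranges of Pik3r1 did not overlap.

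Mllt3, a component of the super elongation complex that is known to sustain HSC self-renewal, had 141, 303, 448 and 380 CPM in group 4, against 92.8, 176, 187 and 187 CPM in the other cells (log2 fold change 0.94 ± 0.18). Rest, a transcriptional repressor, had 167, 123, 128 and 161 CPM in group 4, against 79.1, 71.8, 77.1 and 57.5 CPM in the other cells (0.98 ± 0.27). Mllt3 was higher on each plate with overlapping ranges, while those of Rest stood apart. Zcchc6, a terminal uridylyltransferase that acts on RNA 3′ ends, had 167, 144, 146 and 219 CPM in group 4, against 95.5, 54.5, 102 and 80.9 CPM in the other cells (1.01 ± 0.24).

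The other 7 genes of the highest 12 had log2 fold changes of 0.83 to 1.17: the kinase gene Hipk1 (1.17), the ETS factor Elf1 (0.99), Mettl7a1 (0.96), Aplp2 (0.91), the GTPase gene Gimap5 (0.89), the interferon signaling factor Irf9 (0.84) and the endocytic scaffold Itsn1 (0.83). Irf9 depended on plate 2. It had 246, 137, 128 and 138 CPM in group 4, against 70.9, 116, 79.6 and 85.1 CPM in the other cells, and its log2 fold change was 0.48 without plate 2. Elf1 varied between 61.6 and 324 CPM over the plates of group 4.

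The 12 widest negative differences were all in genes of DNA replication, its histones or mitosis. Tk1, the thymidine kinase of S phase, had 8.80, 28.8, 18.3 and 0 CPM in group 4, against 177, 253, 254 and 215 CPM in the other cells. Group 4 held 7 UMIs of Tk1 in all. Lig1, the DNA ligase of lagging-strand synthesis, had 96.8, 72.1, 91.5 and 115 CPM in group 4, against 524, 295, 381 and 396 CPM in the other cells (log2 fold change -2.11 ± 0.21). Both genes were lower in group 4 on every plate, with no overlap. The others were Ube2c, Uhrf1, Spc24, Top2a, Pcna, Hmgb2, Mcm3 and the replication-dependent histone genes Hist1h2ae, Hist1h1b and Hist1h1a, at -2.34 to -1.63.

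**Figure D2:**
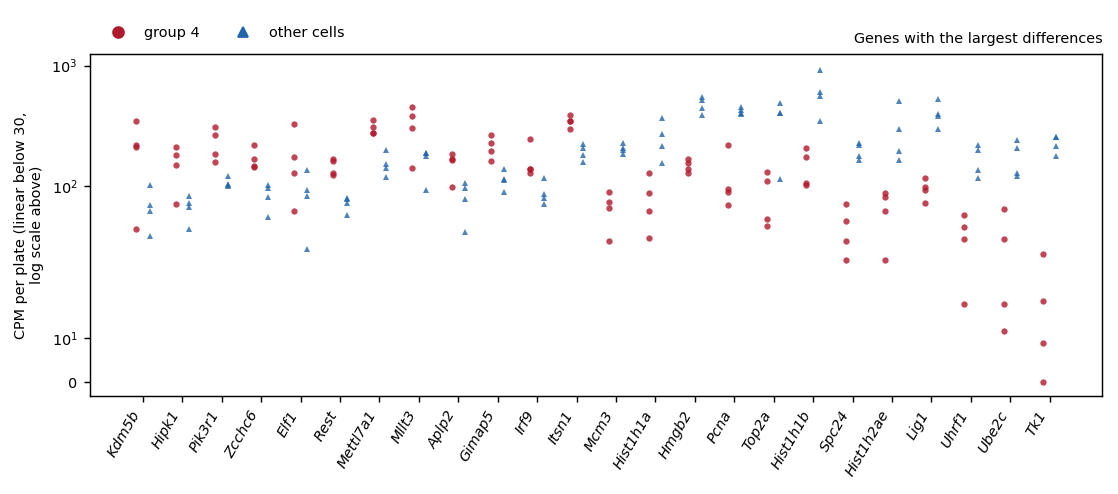
CPM per sort plate (y axis, linear below 30 and log scale above) in group 4 (red circles) and in the other cells (blue triangles) for the 12 genes with the highest and the 12 with the lowest log2 fold change among counted genes. Points of the cycle genes on the right, Tk1 with 0 to 28.8 CPM in group 4 among them, lie below those of the other cells on the same plate.

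Read by list, the S phase genes had 0 counted as higher and 26 as lower of 35 tested (49 in the table), with a median log2 fold change of -1.12. The G2/M genes had 0 higher and 21 lower of 34 tested, with a median of -0.99. In the list of replication and linker histones, which also holds the variant genes H2afx and H2afz, 8 of 12 tested were counted as lower. Both variant genes were among the 8, and H2afz was also counted in the G2/M list. The 1 counted as higher was H1f0, the linker histone that accumulates in non-dividing cells. The G1 and growth list, genes of nuclear transport, nucleotide and polyamine synthesis, had 9 lower and 1 higher of 20 tested, with a median of -0.49. Its members Nme1, a nucleoside diphosphate kinase (273, 332, 293 and 196 CPM in group 4, against 513, 567, 632 and 568 CPM in the other cells), and Ran, the nuclear transport GTPase (440, 433, 485 and 265 CPM in group 4, against 791, 745, 784 and 762 CPM in the other cells), did not overlap between the groups. Mycn, a transcription factor gene that also stands in the HSC marker and multipotent progenitor lists, was counted as higher.

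Of the HSC transcription factors, 5 of 23 tested were counted as higher and 0 as lower, with a median log2 fold change of 0.34. They were Hlf, Mllt3, Hoxa9, Hhex and Ikzf1. Hlf had 493, 627, 430 and 610 CPM in group 4, against 256, 381, 291 and 317 CPM in the other cells (0.77 ± 0.13), without overlap. Hhex, a homeobox factor, had 202, 260, 247 and 207 CPM in group 4, against 123, 154, 137 and 134 CPM in the other cells (0.72 ± 0.20). The zinc finger factor Mecom (0.43 ± 0.24), the homeobox factor Meis1 (0.32 ± 0.17) and Gata2 (0.23 ± 0.13) were not counted. The summed list took 0.656 ± 0.0423% of UMIs in group 4 and 0.513 ± 0.00798% in the other cells, higher on 4 of 4 plates.

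Of the HSC surface and marker genes, 7 of 31 tested were counted as higher and 0 as lower, with a median of 0.22. Procr had 167, 101, 165 and 161 CPM in group 4, against 76.4, 99.1, 79.6 and 91.5 CPM in the other cells (0.73 ± 0.25). It was higher on each plate without overlap, by a narrow margin on plate 3. Pdzk1ip1, a small membrane protein gene enriched in HSCs, had 1003, 786, 1015 and 956 CPM in group 4, against 739, 550, 525 and 662 CPM in the other cells (0.58 ± 0.10). Kit, Ly6a, Mycn and Cd74, the MHC class II invariant chain, were also counted, with 0.68, 1.16, 0.80 and 0.81. Cd34, which is low in the most immature mouse HSCs, had 114, 166, 91.5 and 184 CPM in group 4, against 150, 223, 142 and 106 CPM in the other cells (-0.22 ± 0.23).

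Smaller lists gave mixed pictures. Of 9 quiescence genes tested, Txnip, Tsc22d3, Tsc22d1 and Pik3ip1 were counted as higher and Tgfb1 as lower. Txnip, the thioredoxin-interacting protein gene, had 827, 1240, 1436 and 1646 CPM in group 4, against 595, 812, 948 and 1028 CPM in the other cells (0.58 ± 0.09), higher on each plate. Jund, Ier3 and Mcl1 were counted as higher of 9 immediate early genes tested, Irf7, Irf9, Stat2 and Igtp of 21 interferon genes, and Tapbp, a peptide-loading chaperone, of 8 MHC class I pathway genes. In the B, T and natural killer list the counted genes were Cd74, H2-Aa and H2-Eb1, all 3 of MHC class II; Cd74 also stands in the HSC marker list.

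Serpina3g, a serine protease inhibitor of blood progenitors, was among 3 megakaryocyte list genes counted as higher of 17 tested. It had 1540, 1024, 1143 and 1266 CPM in group 4, against 867, 713, 731 and 851 CPM in the other cells (0.63 ± 0.09), without overlap; Gp1bb was counted as lower. Myeloid progenitor genes had 0 counted of 8 tested and summed to 0.524 ± 0.0439% in group 4 and 0.524 ± 0.0338% in the other cells. Erythroid genes had 2 counted as lower of 9 tested, Hemgn and Mt2, while the summed list, which holds the globins, was 0.436 ± 0.0647% in group 4 and 0.372 ± 0.0404% in the other cells. Retinoic acid genes had 0 counted of 6 tested. Multipotent progenitor and lymphoid priming genes had 2 higher (Mycn and Lsp1) and 1 lower (Tcf3) of 6 tested.

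Housekeeping lists moved little or to lower values. Complex I subunits had 5 lower of 34 tested (median -0.24), proteasome subunits 4 lower of 28 (-0.22) and heat shock chaperones 3 lower of 13 (-0.16). Redox genes had 2 lower of 22, glycolytic genes 2 higher of 13, Aldoc and Pdk1, actin and cytoskeletal genes 1 higher of 20 and translation factors 0 of 14. Cytosolic ribosomal protein genes had 2 higher and 3 lower of 69 tested (-0.08) and took 15.7 ± 0.377% of UMIs in group 4 and 16.2 ± 0.456% in the other cells.

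Because groups 8, 9 and 10 had the highest mean shares of cycle transcripts, the same comparison was made with the pool of groups 2, 3 and 5. There group 4 had higher Kit, Malat1, Nfkbia and Ctcf and a smaller share of ribosomal protein mRNA. Of 2852 genes tested, 93 were counted as higher (3.26%) and 66 as lower (2.31%), 5.58% in either direction, with a median log2 fold change of 0.00 over all of them. This comparison shares the cells of group 4 with the one above, so the same genes returning in both is no separate support.

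Kit, the stem cell factor receptor, had 510, 332, 338 and 679 CPM in group 4, against 343, 179, 192 and 336 CPM in the pool of groups 2, 3 and 5 (log2 fold change 0.82 ± 0.17). It was higher on each plate and varied between plates in both. Malat1, a nuclear long noncoding RNA, had 634, 1370, 1143 and 2003 CPM in group 4, against 496, 799, 760 and 902 CPM in the pool (0.77 ± 0.11). Nfkbia, the NF-kappa-B inhibitor, had 370, 274, 201 and 230 CPM in group 4, against 153, 137, 150 and 129 CPM in the pool (0.85 ± 0.22). Malat1 overlapped between the groups because of plate 2, and Nfkbia did not overlap.

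Ctcf, the chromatin insulator protein, had 290, 231, 247 and 196 CPM in group 4, against 165, 147, 65.9 and 184 CPM in the pool (0.75 ± 0.23). Plate 4 carried part of this difference, since without it the log2 fold change was 0.48. The remaining genes of the highest 12 were Hipk1 (1.10), Zcchc6 (0.95), Elf1 (0.89), Fnbp1 (0.83), Rest (0.83), Atxn7l3b (0.75), Acadm (0.74) and Aplp2 (0.73). Fnbp1, which codes for a membrane-bending formin-binding protein, was at 0.48 without plate 5.

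On the lower side, Pcna, the sliding clamp of DNA replication, had 88.0, 93.7, 219.5 and 69.1 CPM in group 4, against 191, 247, 234 and 235 CPM in the pool (-0.98 ± 0.24). It was lower on each plate, least so on plate 4, and without plate 4 its log2 fold change was -1.44. Lig1 had 96.8, 72.1, 91.5 and 115 CPM in group 4, against 204, 110, 222 and 184 CPM in the pool (-0.95 ± 0.28). Nme1 had 273, 332, 293 and 196 CPM in group 4, against 293, 515, 557 and 446 CPM in the pool (-0.77 ± 0.17). The other 9 were Eif4e2, Ubap2, 2210411K11Rik, 2310039H08Rik, Isyna1, Rnaseh2a, Zdhhc4, Snrpa1 and Apoa1bp, at -0.96 to -0.70. Of these, 2310039H08Rik was at -0.42 without plate 4.

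**Figure D3:**
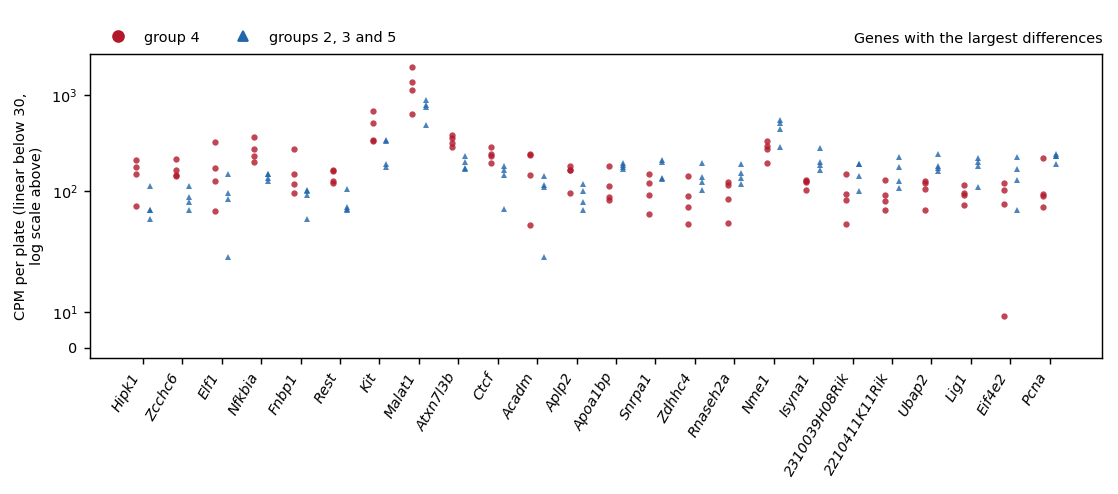
CPM per sort plate (y axis, linear below 30 and log scale above) in group 4 (red circles) and in the pool of groups 2, 3 and 5 (blue triangles) for the 12 highest and 12 lowest counted genes of this comparison. Malat1 reaches 2003 CPM in group 4, and most other genes lie between 50 and 500 CPM in both.

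The S phase list kept 4 counted as lower of 19 tested against the pool, Mcm2, Mcm5, Pcna and Lig1, with a median of -0.16, while the G2/M list had 0 lower and 1 higher, Ctcf, of 12 tested. The thinned S and G2/M share was 0.789 ± 0.0281% in group 4 against 0.836 ± 0.0309% in the pool, lower on 4 of 4 plates with a mean difference of -0.0466 ± 0.0347 percentage points. Most HSC genes counted against all other cells were not counted here. Hlf was at 0.30 ± 0.15, Procr at 0.08 ± 0.26, Txnip at 0.09 ± 0.09 and Mecom at -0.22 ± 0.24. Hoxa9 was the 1 counted of 19 transcription factors (0.95 ± 0.37), and Kit and Mycn the 2 counted of 24 surface and marker genes.

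Ribosomal protein mRNA took 15.7 ± 0.377% of UMIs in group 4 against 17.7 ± 0.692% in the pool, lower on 4 of 4 plates. Single genes moved too little to be counted: of 57 tested, 1 was higher, Rpl7a, and 0 lower, with a median log2 fold change of -0.22 beside 0.00 for all genes. By group the share was 15.7 ± 0.377% in group 4, 19.6 ± 0.474% in group 2, 18.6 ± 0.825% in group 3, 16.5 ± 0.523% in group 5, 17.5 ± 0.979% in group 7, 17.2 ± 0.407% in group 8 and 13.5 ± 0.697% in group 9. Depth differed too, with median UMIs per cell of 1240 ± 134 in group 4, 1012 ± 134 in group 2, 990 ± 115 in group 3, 1259 ± 127 in group 5, 1094 ± 128 in group 7, 1440 ± 127 in group 8 and 2486 ± 413 in group 9. Group 8 had more UMIs per cell than group 4 and a larger ribosomal share, while group 9 had more UMIs and a smaller share. Groups 2 and 3 had fewer UMIs per cell and a larger share. The part of depth in this share was not tested.

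Set against each of these groups alone, group 4 had 90 higher and 51 lower of 1360 genes tested against group 2 (6.62% and 3.75%, 10.4% in all). It had 99 higher and 62 lower of 1574 against group 3 (6.29% and 3.94%, 10.2% in all), and 97 higher and 78 lower of 2433 against group 5 (3.99% and 3.21%, 7.19% in all). The partners differed. The rule used for the pool gave, against group 2, Eif1b (log2 fold change 1.52), Atxn7l3b (1.46) and the intermediate filament gene Vim (1.24) on the higher side, and the serine biosynthesis enzyme gene Psph (-1.73) on the lower. Against group 3 it gave Zcchc6 (1.57), Malat1 (1.43) and Kit (1.04) as higher, and the respiratory complex I genes Ndufs4 (-1.01) and Ndufb6 (-1.01) as lower. Of 30 complex I genes tested against group 3, 5 were counted as lower and 2, Ndufa8 and Ndufb8, as higher. Against group 5 it gave the NF-kappa-B pathway genes Nfkbia (1.17) and Nfkb1 (0.86) as higher, and Pcna (-1.26) and Hemgn (-1.07), a nuclear protein of blood progenitors, as lower.

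Among 2187 genes ranked over the 7 groups of at least 50 cells, 4 had their highest CPM in group 4 on every plate and 1 its lowest. Group 9 had 50 and 32 such genes and group 2 had 11 and 8, while group 3 had 6 and 2, group 5 had 2 and 0, group 7 had 6 and 9, and group 8 had 7 and 0. The 4 were Chd2, a chromatin remodeler, Elf1, Pik3r1 and Uqcrfs1, the Rieske iron-sulfur subunit of respiratory complex III. Uqcrfs1 had 334, 310, 302 and 391 CPM in group 4, and its mean of 334 ± 40.4 CPM stood beside group means of 156 to 258 CPM elsewhere. Chd2 had 255, 166, 201 and 219 CPM in group 4, with group means of 99.6 to 179 CPM elsewhere. On single plates its margin was narrow. Group 2 had 236 CPM on plate 2 from 3 UMIs, group 5 had 196 CPM on plate 4, and group 3 had 212 CPM on plate 5 from 11 UMIs. The gene lowest in group 4 was Lig1, at 93.9 ± 17.7 CPM beside group means of 143 to 700 CPM.

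The index record also holds 14 cytometer channels per cell, which are independent of the transcripts: light scatter, CFP, the viability dye DAPI and 6 fluorochromes whose antibodies the record does not name. Each channel was turned into a rank within its plate, from 0 for the lowest to 100 for the highest cell, and averaged. With 4 plates the exact two-sided sign-flip permutation test cannot go below p = 0.13 (2 of 16 sign patterns, rounded), so no channel could pass 0.05, and sizes and plate counts are given beside it.

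CFP showed the widest gap. The mean rank was 39.3, 41.5, 39.1 and 36.7 in group 4 on plates 2 to 5, against 54.1, 53.3, 53.2 and 53.0 in the other cells. Group 4 was lower on 4 of 4 plates without overlap, with a difference of -14.3 ± 1.88 percentile points (39.1 ± 1.98 in group 4 and 53.4 ± 0.484 in the other cells, exact p = 0.13, 0.146 adjusted over 14 channels). Against the pool of groups 2, 3 and 5 the difference was -3.48 ± 1.79 points, again lower on 4 of 4 plates (exact permutation p = 0.13, adjusted 0.438).

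Divided by the brightest and dimmest 20% of cells on each plate, as the bulk samples of the study were sorted, group 4 made up 35.4 ± 5.68% of CFP dim cells (101 of 285), 24.0 ± 4.43% of intermediate cells (205 of 856) and 8.40 ± 3.81% of CFP bright cells (24 of 289). The share in bright cells minus that in dim cells was -27.0 ± 3.90 percentage points, negative on 4 of 4 plates and between -32.0 and -23.7 (exact permutation p = 0.13, the smallest possible). Dim cells carried the number 4 more often than bright cells on each plate, and group 4 was present in all 3 fractions on every plate.

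Group 4 cells also lay lower in light scatter, which depends on cell size and granularity. The difference was -11.8 ± 3.73 points in side scatter area (40.9 ± 2.84 in group 4 and 52.7 ± 1.15 in the other cells) and -11.8 ± 2.04 points in forward scatter width (40.9 ± 1.59 in group 4 and 52.7 ± 0.809 in the other cells). Forward scatter height was higher on 2 plates and lower on 2, with a mean difference of -3.10 ± 5.23 points (exact permutation p = 0.5). Side scatter height, side scatter width and forward scatter area were lower on 4 of 4 plates, with differences of -10.7, -9.08 and -5.81 points. Against the pool of groups 2, 3 and 5, every scatter channel was lower on 3 plates and higher on 1. There the difference was -4.93 ± 6.43 points in side scatter area and -3.19 ± 2.95 points in forward scatter width. Group 7 had a mean rank of 40.5 ± 6.02 in side scatter area, close to that of group 4.

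Of the fluorochromes, Alexa Fluor 700 was the 1 channel in which group 4 was higher on 4 of 4 plates. Its mean rank was 54.1, 52.7, 59.3 and 59.8 in group 4, against 48.8, 49.3, 47.2 and 48.0 in the other cells, a difference of 8.18 ± 4.45 points (exact permutation p = 0.13, adjusted 0.146). APC-Alexa Fluor 750 was lower on 4 of 4 plates, with a difference of -11.5 ± 2.24 points. So were DAPI (-11.2 ± 4.62), PE-Cy7 (-10.2 ± 3.62), PE (-5.16 ± 3.21) and PE-Cy5 (-2.06 ± 0.757). APC was lower on 3 of 4 plates (-1.66 ± 2.19). Wells without a readable value were left out, and group 4 held 31 of 77 in PE-Cy7, 22 of 70 in DAPI, 17 of 47 in PE and 5 of 14 in PE-Cy5. These are larger shares than its 330 of 1430 recorded cells, so the ranks of these 4 channels leave out group 4 unevenly. Against the pool of groups 2, 3 and 5, CFP and DAPI were lower on 4 of 4 plates, and lower in the mean than in each of these groups. APC and PE-Cy7 were also lower than in the pool on 4 of 4 plates, but not than in each group. The mean rank in APC was 48.8 ± 1.72 in group 4, against 59.0 ± 5.40 in group 2, 52.7 ± 5.01 in group 3 and 46.6 ± 2.39 in group 5. That in PE-Cy7 was 42.1 ± 2.82 in group 4, against 35.1 ± 3.89 in group 2, 41.3 ± 1.05 in group 3 and 50.9 ± 0.900 in group 5. In Alexa Fluor 700 it was 56.5 ± 3.59 in group 4, against 57.9 ± 3.91 in group 2, 58.9 ± 5.19 in group 3 and 45.9 ± 3.05 in group 5. In APC-Alexa Fluor 750 it was 41.4 ± 1.53, 36.5 ± 4.64, 37.9 ± 2.87 and 49.4 ± 3.97 in the same order. Groups 2 and 3 thus had higher means than group 4 in Alexa Fluor 700 and lower means in APC-Alexa Fluor 750. None of the 14 channels was higher than in the pool on all 4 plates.

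**Figure D4:**
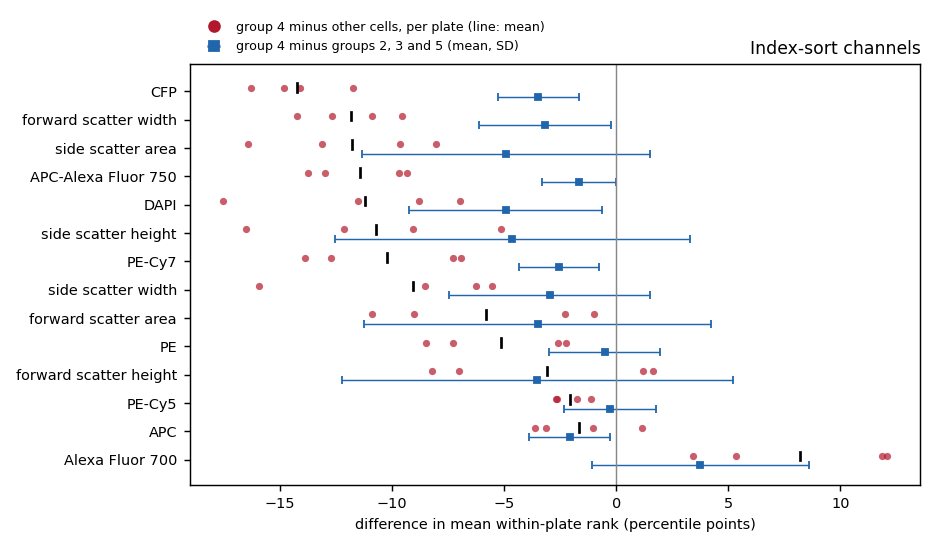
Difference in mean within-plate rank (x axis, percentile points) for 14 index-sort channels. Red points show group 4 minus other cells on each of 4 plates with a black line at the mean, and blue squares with bars the mean and SD over plates of group 4 minus groups 2, 3 and 5; CFP lies at -14.3 and Alexa Fluor 700 at 8.18 against the other cells.

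Within group 4, the cells above the median of group 4's own cells on their plate in a channel (high cells) were compared with those at or below it (low cells), with edgeR's quasi-likelihood test on UMIs summed per plate and the plate as a block. The channels took no part in the UMI table, so these comparisons were tested, with Benjamini-Hochberg adjustment over all genes of each fit.

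CFP divided group 4 with no called gene. Of 1124 genes tested between 161 CFP-high and 169 CFP-low cells, 0 passed an adjusted p of 0.05 in edgeR (0%) and 0 in DESeq2, and 60 had an unadjusted p under 0.05. Median UMIs per cell were 1424.5 ± 184 in CFP-high and 1153 ± 162 in CFP-low cells of group 4. The thinned S and G2/M share was 0.807 ± 0.0815% in CFP-high and 0.771 ± 0.0825% in CFP-low cells. APC, PE and the 6 scatter channels also had 0 called genes in both tools (0% each), with 43 to 82 genes at an unadjusted p under 0.05.

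Alexa Fluor 700 divided group 4 by Cd74, which chaperones MHC class II molecules in antigen-presenting cells. Cd74 had 421, 659, 468 and 893 CPM in high cells on plates 2 to 5, against 88.3, 199, 130 and 208 CPM in low cells. High cells exceeded low cells on each plate and the ranges did not overlap. The log2 fold change was 1.95 ± 0.26 (edgeR adjusted p = 1.4e-07), and Cd74 was the 1 called of 1116 genes (0.0896%). DESeq2 called it too (adjusted p = 0.000125), and leaving out any one plate left adjusted p-values between 4.12e-07 and 4.09e-06 in edgeR.

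The other cells were divided likewise at their own median on each plate, so that the cut differed from that of group 4. One fit of 3596 genes set their relation beside that of group 4. The grouping may have used these same UMIs and so may have limited how a gene varies within a group. The p-values for group 4 minus other cells, here and below, are therefore no support for a difference between groups. For Cd74 the log2 fold change was 1.95 ± 0.27 in group 4 and 1.87 ± 0.19 in the other cells, a difference of 0.08 ± 0.38 (edgeR adjusted p = 0.996). The class II genes H2-Aa, H2-Eb1 and H2-Ab1 had values of 1.07 ± 0.27, 1.28 ± 0.45 and 1.59 ± 0.46 in group 4, none with an adjusted p under 0.05, and 0.79 ± 0.18, 1.05 ± 0.31 and 0.37 ± 0.25 in the other cells. In that fit 62 genes were called in the other cells (1.72%) and 3, Cd74 among them, in group 4.

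Ifitm1 behaved differently. It had 333, 2474, 3457 and 3069 CPM in Alexa Fluor 700-high cells of group 4, against 265, 2331, 3105 and 2662 CPM in low cells (log2 fold change 0.16 ± 0.10, edgeR adjusted p = 0.878). In the other cells it had 249, 3051, 3008 and 3046 CPM in high cells, against 160, 1847, 1771 and 1641 CPM in low cells (0.82 ± 0.06, adjusted p = 1.1e-30). The low cells of group 4 stood above the other low cells on every plate, and the high cells of group 4 above the other high cells on 3 of 4. The difference between the log2 fold changes, group 4 minus other cells, was -0.66 ± 0.12 (edgeR adjusted p = 0.000101). It remained between -0.66 and -0.63 without any one plate, with an adjusted p of 0.0913 without plate 4 and below 0.05 otherwise. The other cells hold several groups that differ in both measures. Group 3 had a mean Alexa Fluor 700 rank of 58.9 and 3574 CPM of Ifitm1, and group 9 had 39.2 and 867 CPM. No other single group was divided, so whether the relation is particular to group 4 was not tested.

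In all 3 of 3596 genes differed this way (0.0834%). Pf4, platelet factor 4, had 52.6, 102, 180 and 115 CPM in Alexa Fluor 700-high cells of group 4, against 35.3, 71.1, 18.6 and 139 CPM in low cells. In the other cells Pf4 had 34.8, 53.7, 73.4 and 47.0 CPM in high cells, against 51.5, 133, 275 and 358 CPM in low cells. The difference of the log2 fold changes was 2.75 ± 0.57 (edgeR adjusted p = 0.00284), and its call was lost when plate 4 (adjusted p = 0.748) or plate 5 (0.182) was left out. The lowest values of Pf4 in group 4 rest on few UMIs, since group 4 held 86858 to 138689 UMIs per plate before this division. The third was Gnb2l1, a ribosome-bound scaffold gene, at -0.29 ± 0.07 (adjusted p = 0.0222), whose call was lost without plate 3 (0.124), plate 4 (0.748) or plate 5 (0.182).

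APC-Alexa Fluor 750 divided group 4 by Ifitm1 in the opposite direction. Ifitm1 had 242, 2028, 2560 and 2125 CPM in high cells, against 358, 2798, 4062 and 3803 CPM in low cells, lower in high cells on each plate (log2 fold change -0.65 ± 0.09, edgeR adjusted p = 3.44e-06, DESeq2 0.000958). Leaving out any one plate kept it called, with log2 fold changes of -0.76 to -0.59. In the other cells, where 199 of 3441 genes were called (5.78%), the value was -0.998 ± 0.06, and the difference from group 4 was 0.34 ± 0.12 (edgeR adjusted p = 0.265). Of 1114 genes 3 were called (0.269%). The other two, Cd74 (-1.18 ± 0.29, adjusted p = 0.0394) and the ribosomal gene Rplp1 (-0.17 ± 0.04, adjusted p = 0.0122), were not called by DESeq2. Cd74 lost its call without plate 2 (adjusted p = 0.37) or plate 3 (0.918, log2 fold change -0.54), and Rplp1 without plate 3 (0.491) or plate 4 (0.183).

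Between group 4 and the other cells, 18 of 3441 genes differed in their relation to APC-Alexa Fluor 750 (0.523%). The 8 histone genes among them included Hist1h1e, a linker histone. Hist1h1e had 605, 559, 565 and 846 CPM in high cells of group 4, against 573, 447, 683 and 860 CPM in low cells. In the other cells it had 1213, 832, 1166 and 1724 CPM in high cells, against 580, 259, 515 and 631 CPM in low cells. The difference of the log2 fold changes was -1.29 ± 0.21 (edgeR adjusted p = 1.03e-05). High and low cells overlapped in group 4 and did not overlap in the other cells, which include groups 8 and 9 with their higher share of cycle transcripts. The adjusted p of Hist1h1e was at most 0.00294 without any one plate, while the number of called genes was 11, 3, 5 and 8 without plates 2 to 5.

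**Figure D5:**
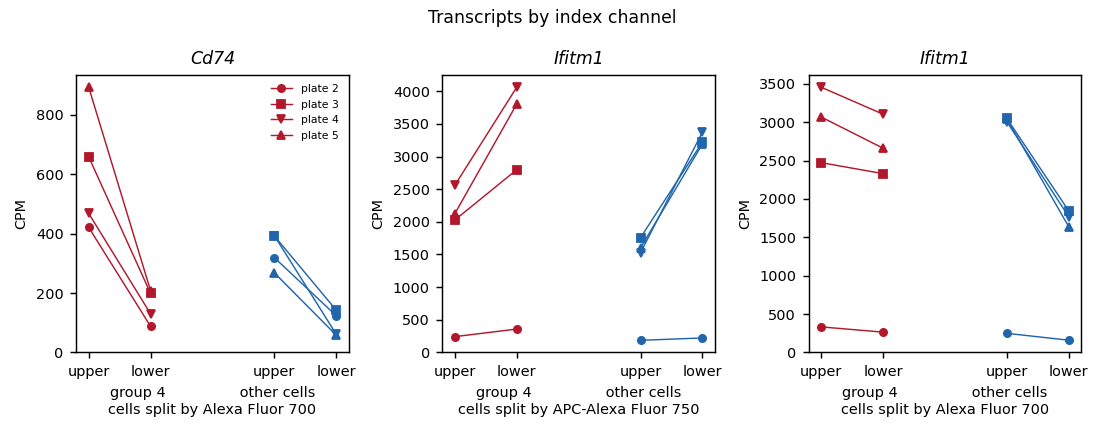
CPM (y axis) of Cd74 and Ifitm1 in cells above (upper) and at or below (lower) the median of the named index channel, taken on each plate within group 4 (red) and within the other cells (blue) separately; each line joins the values of 1 sort plate. Cd74 is higher in the Alexa Fluor 700-high cells of both, and Ifitm1 differs little with Alexa Fluor 700 in group 4 and more in the other cells; plate 2 lies near the bottom for Ifitm1.

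The remaining channels gave calls that rested on single plates or on one tool. PE-Cy5-high cells of group 4 had more Cd74, with 379, 578, 485 and 849 CPM in high cells against 145, 285, 130 and 220 CPM in low cells. The log2 fold change was 1.47 ± 0.26 (edgeR adjusted p = 0.00259, DESeq2 0.0657; 0.121 without plate 3 and 0.294 without plate 5). Apoe, apolipoprotein E, was the other of 2 genes called of 1075 (0.186%), at -0.63 ± 0.14 (adjusted p = 0.0491), a call lost without any one plate. PE-Cy7-high cells had less Cd74 (-1.29), Ifitm1 (-0.64) and Ifitm3 (-0.63), 3 of 929 genes (0.323%). Ifitm3 was lower in high cells on 4 of 4 plates, Cd74 and Ifitm1 on 3. On plate 2 the direction was opposite for Cd74 (195 CPM in high and 125 CPM in low cells) and Ifitm1 (355 and 271 CPM). The 3 calls were all lost without plate 2 (edgeR adjusted p of 0.167 to 0.18) and without plate 5 (0.893 to 0.923). Those of Cd74 (0.832) and Ifitm3 (0.572) were also lost without plate 3. DAPI-high cells had less Ifitm1 (-0.50) and 2410006H16Rik (-0.62), 2 of 993 genes (0.201%). On plate 2 Ifitm1 went the other way (317 CPM in high and 296 CPM in low cells), while 2410006H16Rik was lower on 4 of 4 plates. The call of Ifitm1 was lost without plate 3 (adjusted p = 0.0966) or plate 4 (0.332), and that of 2410006H16Rik without any one plate. DESeq2 called none of the PE-Cy7 and DAPI genes.

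Variation among the cells of group 4 was described by the variance of UMIs divided by their mean (Fano factor, 1 for pure counting noise) after thinning to 500 UMIs. Among 917 genes with a mean of at least 0.1 UMI the median was 1.07, and 14 genes reached 1.5. The beta-globin gene Hbb-b1 was highest at 2.30, with a UMI in 9.39% of cells and up to 7 in one cell. Hbb-b1 in the cells as a whole was at 253 ± 60.4 CPM in group 4 and 206 ± 28.3 CPM in the other cells. Serpina3g (1.95), the translation elongation factor gene Eef1a1 (1.86), Lst1, a leukocyte transcript of the MHC locus (1.83), and Cd74 (1.71) followed. Serpina3g had a UMI in 38.2% of cells, Lst1 in 11.8% and Cd74 in 11.2%.

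Part of the list reflected plates rather than cells. With the variance taken within plates, Eef1a1 had 1.00 in place of 1.86, Rpl4 1.03 in place of 1.69, Rpl32 0.94 in place of 1.63, Rpl34 1.17 in place of 1.66 and Ifitm1 1.30 in place of 1.68. Hbb-b1 (2.31), Serpina3g (1.96), Lst1 (1.79), Cd74 (1.72) and Atpase6, an ATP synthase gene (1.55), kept theirs, and these 5 of the 10 genes were also among the 10 highest within plates.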

How the data were processed

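The deposited table holds UMI counts per gene entry (27297) and well (1536), which the authors made from plate-based single-cell RNA-seq; no source used here gives how reads became UMIs. The submitters' processing notes name, without roles, the builds mm9 and mm10 and the tools bcl2fastq 2.15.0.4, Bismark 0.19.0, STAR, cutadapt, featureCounts and DESeq2. In the deposited index record, scatter channels are linear intensity values and CFP, APC, Alexa Fluor 700 and APC-Alexa Fluor 750 are log10 channel values; PE, PE-Cy5, PE-Cy7 and DAPI hold spreadsheet errors in 47, 14, 77 and 70 wells, which were left out. Recorded wells held at least 511 UMIs and the 106 unrecorded ones up to 502; no doublet caller was run.

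UMIs were summed per sort plate and group. edgeR 4.0.16 (filterByExpr, TMM, quasi-likelihood, plate as block) gave fold changes in R 4.3.3; DESeq2 1.42.0 was an alternative. The plates pair the sums, since both sums of a comparison come from the same plate, as the record states. Scripts were tested on simulated counts. Dye channels were ranked within plates. The 29 gene lists, the members and the tests were chosen with earlier results of these data known. Named were up to 12 counted genes at each end with a mean of at least 100 CPM, counted list members, genes extreme in all plates, called genes and the 10 highest Fano factors; other genes were named after their values were seen. Some list members are not reported here. The fits that set group 4 beside the other cells by channel, and the within-plate Fano factors, were added after seeing the data. Intervals and floors cover counting error only.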

Additional observations from a re-analysis of the deposited data

Results flagged for a closer look

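Single plates lay far from the other 3 in 9 of 125 sets of 4 plate values tested for an outlying plate, where chance gives about 1 in 20. On plate 2, Irf9 had 246 CPM in group 4 and Ifitm3 114 CPM, and Ifitm3 had 106 CPM in PE-Cy7-high and 146 CPM in PE-Cy7-low cells of group 4. Rplp1 had 14561 CPM in APC-Alexa Fluor 750-high cells on plate 2. Pcna had 219.5 CPM in group 4 on plate 4. The myeloid progenitor list took 0.590%, the heat shock list 0.729% and the mast cell list 0.000721% of UMIs in group 4 on their outlying plates, the last from 1 UMI.

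The grouping may have used these same UMIs, so the p-values behind the following 21 tests are no support for a difference between groups. The difference between upper and lower cells of a channel itself differed between group 4 and the other cells in 21 tests (edgeR, adjusted p under 0.05), given here as the log2 fold change of group 4 minus that of the other cells. For Alexa Fluor 700 it was -0.66 for Ifitm1, -0.29 for Gnb2l1 and 2.75 for Pf4. For APC-Alexa Fluor 750 it was negative for histone genes: -3.46 for Hist1h2ae, -2.30 for Hist1h1a, -2.28 for Hist1h1b, -2.04 for Hist1h1d, -1.94 for Hist1h4d, -1.50 for Hist1h1c, -1.29 for Hist1h1e and -0.96 for H2afz. Group 4 held 29 UMIs of Hist1h2ae in all. The difference was also negative for the mitosis, transport and tubulin genes Smc4 (-2.39), Top2a (-2.0), Rangap1 (-1.92), Tuba1b (-0.79) and Tubb5 (-0.69). It was positive for Adss (1.93), Ypel3 (1.13), Pdzk1ip1 (0.76), Rpl32 (0.31) and Rplp0 (0.27). Pdzk1ip1 had 1193, 727, 1042 and 970 CPM in APC-Alexa Fluor 750-high cells of group 4, against 806, 848, 987 and 938 CPM in low cells, and in the other cells 651, 456, 434 and 470 CPM in high cells, against 851, 669, 636 and 922 CPM in low cells.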

How the results depend on the processing

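Counts of genes depended on the filter, the fold and the depth, and no direction turned except in 16 list medians. Without a filter on low counts, 979 genes were lower than in the other cells, 494 higher and 380 lower than in the pool of groups 2, 3 and 5, and 1241, 1097 and 891 differed from groups 2, 3 and 5 singly; the median of all genes was then -0.137 against the other cells, 0.450 against group 2 and 0.290 against group 3. With cells thinned to 500 UMIs, where fewer genes were tested, the counts were 100 higher and 118 lower against the other cells, of which 44 and 62 were counted without thinning, 26 and 23 against the pool (10 and 4 of them), and 32, 36 and 53 against groups 2, 3 and 5 (11, 20 and 15). At a log2 fold of 1 they were 34 and 91, 6 and 2, and 29, 15 and 10. With cells of at least 1000 UMIs, 83 genes differed from group 2. The S and G2/M difference was -0.77 points at 1000 UMIs. Leaving out 1 plate asks for agreement on fewer plates and gave 436 to 528 higher genes against the other cells, 142 to 218 higher and 115 to 160 lower against the pool, and 217 to 301, 220 to 304 and 289 to 328 against groups 2, 3 and 5.

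Within group 4, calls needed the plate block: without the replicate block 0 genes were called for Alexa Fluor 700, APC-Alexa Fluor 750, PE-Cy5, PE-Cy7 and DAPI, and the adjusted p of Cd74 by Alexa Fluor 700 was 0.112. DESeq2 called 1 gene for APC-Alexa Fluor 750 and 0 for PE-Cy5, PE-Cy7 and DAPI. Without a filter 2, 1, 1, 1 and 0 genes were called in that order. Without 1 plate the ranges were 1 to 3, 1 to 3, 0 to 1, 0 to 7 and 0 to 2, and 0 to 2 for forward scatter height; differences from the other cells numbered 0 to 3 for Alexa Fluor 700 and 3 to 11 for APC-Alexa Fluor 750. Within plates, 5 of the 10 highest Fano factors were shared.

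List medians turned sign in 16 cases. Against the other cells these were, without a filter, myeloid -0.00259, erythroid -0.0624 and glycolysis -0.00453; glycolysis without plate 4 (-0.00405, and up to 0.122 without another plate) and in cells of at least 1000 UMIs (-0.0505); at 500 UMIs, immediate early -0.0942 (0.515 in the unthinned cells) and myeloid -0.0038 (0.296); and erythroid with group 1 kept (-0.404). Against the pool they were megakaryocyte without a filter (-0.0672), interferon without plate 2 (-0.0298, otherwise up to 0.215), quiescence without plate 3 (-0.0391, otherwise up to 0.162), B, T and natural killer without plate 5 (-0.196, otherwise up to 0.300), and, at 500 UMIs, quiescence -0.0500, immediate early -0.116, B, T and natural killer -0.00485 and interferon -0.0809. The cause was not tested. Depth limits genes under about 100 CPM, which had few UMIs per plate.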
